A study of Mus musculus with 2 samples.

Results

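The transcripts described here are those of 10 genes of the Notch pathway: the receptors Notch1, Notch2 and Notch3, the ligands Dll1, Dll3 and Jag1, and the transcription factors Hes1, Hes5, Hey1 and Hey2, which Notch signalling switches on. The genes were listed by name, with earlier results of these data known, and every probe that the deposited table assigns to one of these symbols was taken. This gave 14 probes for 10 of the 26891 named genes on the array. The cells were Stat5b-knockdown and control cells of 1 murine glioblastoma stem cell line. The line had been grown as neurospheres from tumours that transposon mutagenesis with the SB element induced in mice. The knockdown cells stably carried a lentiviral hairpin RNA against Stat5b, a transcription factor that cytokine and growth factor receptors activate, and the control cells a lentiviral hairpin with no target. Both were kept in serum-free neural stem cell medium with EGF and bFGF. Total RNA of each was hybridised to 1 single-colour Agilent array. There were no replicates, so no test between the groups was possible, and the number of arrays limits the precision of every difference.

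Notch receptors are membrane proteins that bind Delta or Jagged ligands on a neighbouring cell. Binding leads to cleavage by an ADAM protease and then by gamma-secretase, and the freed intracellular part enters the nucleus, joins the DNA-binding protein Rbpj and its Mastermind coactivators, and activates genes such as those of the HES and HEY repressors. In neural stem cells these repressors keep proneural genes down and hold the cells undifferentiated, and Notch signalling is also studied in glioma stem cells.

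Of the 10 genes, 8 were measured on both arrays, that is, with at least 1 probe well above background on each. Dll3, an atypical ligand, was the single gene higher by 1.5-fold or more on the Stat5b-knockdown array, and no gene was lower by 1.5-fold or more. Over all 16354 genes measured on both arrays, 11.0% were higher by 1.5-fold or more and 8.44% lower by 1.5-fold or more. None of the 8 differed 2-fold or more, against 3.66% of all genes that were higher by 2-fold or more and 2.41% that were lower by 2-fold or more. Below 0 in log2 difference, knockdown minus control, were 4 of the 8, against 48.9% of all genes. The median of the 8 was -0.04, against 0.01 over all genes. Hey2 gave a signal well above background in the knockdown cells alone, as did 1.87% of the 26891 named genes, and Hes5 gave none on either array, as did 35.0%.

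Values below are the processed signal, a brightness in arbitrary units after the scanner software's background correction. Differences are log2 values after each array was scaled to its 75th percentile, a signal of 493.6 on the knockdown array and 493.2 on the control array. The value after ± is the error that the scanner software assigns to the difference, with a median of 0.204 over all genes. It leaves out any spread between cultures. Measured on these arrays, the SD of the log2 difference was 0.0558 between replicate spots of 1 probe (297 probes) and 0.310 between different probes of 1 gene (7233 genes). Each of the 14 probes was spotted once.

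**Figure D1:**
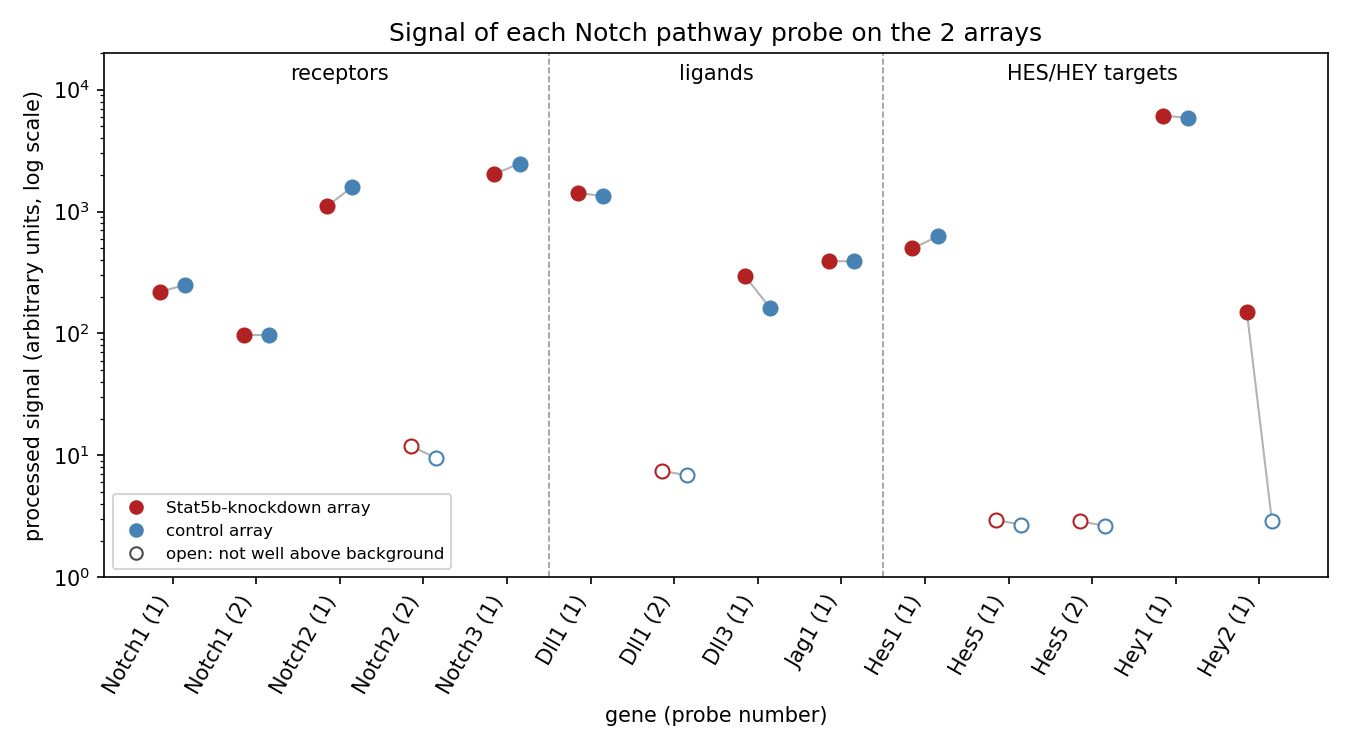
Processed signal on a log axis for each of the 14 probes, with the Stat5b-knockdown array in red on the left of each pair and the control array in blue on the right. Open circles are signals not well above background. In 9 pairs both circles are filled and lie within 2-fold of each other, and in the Hey2 pair the knockdown circle at 151 is filled while the control circle at 2.91 is open.

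The targeted gene was lower on the knockdown array. The brighter Stat5b probe had a signal of 498 on the knockdown array and 1991 on the control array, a difference of -2.00 ± 0.20. Well above background were 58.6% of 56605 probes on the knockdown array and 59.5% on the control array, and no spot was saturated. Of 10 neural stem cell markers, 6 were measured on both arrays, among them Nes with 15870 on the knockdown array and 18170 on the control array. Olig2 was above background on the knockdown array alone, with 53.2 there and 6.28 on the control array. Its probe lay at row 383, within the last 64 rows, which are described below with Dll3. Sox2 and Fabp7 were above background on neither. Pax6 was the single one of the 6 past 1.5-fold (-0.70 ± 0.15). Of 6 endothelial markers, Pecam1 had 60.1 on the knockdown array and 50.2 on the control array and Cdh5 50.4 on the knockdown array and 84.7 on the control array, while Kdr, Tek, Cldn5 and Tie1 were above background on neither. Of 4 measured astrocyte markers Aqp4 (0.94 ± 0.21) and Gja1 (0.98 ± 0.26) were past 1.5-fold, both on the higher side. At its brightest probe Aqp4 gave 79.0 on the knockdown array and 80.2 on the control array. Gfap was above background on the control array alone, with 15.1 on the knockdown array and 23.2 there, and Slc1a3 on neither. Of 6 measured oligodendrocyte lineage markers Pdgfra (0.89 ± 0.27) and Cspg4 (0.77 ± 0.13) were past 1.5-fold, both higher, and 3 lay below 0. Sox10 was above background on the control array alone. The astrocyte marker S100b was above background in knockdown cells alone, with 122 there and 9.22 on the control array. Summed signals, here and below, add the brightest probe of each listed gene, also where it was not above background. They can thus differ from the gene differences. The summed astrocyte signal was 359 on the knockdown array and 226 on the control array, and most of this gap came from S100b. The summed oligodendrocyte lineage signal was 2600 on the knockdown array and 2246 on the control array. Within it Cspg4 gave 1247 on the knockdown array and 528 on the control array at its brightest probe. Mbp went the other way at its brightest probe, with 1047 on the knockdown array and 1381 on the control array. Its difference over measured probes was 0.14 ± 0.16. Of 10 microglial and leukocyte markers 5 were measured on both arrays, 4 above 0 and 1 below. Tmem119, with 114 on the knockdown array and 32.7 on the control array (1.80 ± 0.24), was the single one past 1.5-fold. Ptprc gave 4831 on the knockdown array and 3288 on the control array (0.55 ± 0.20). Itgam (0.11 ± 0.18) and Csf1r (0.22 ± 0.14) differed less, and C1qb lay below 0 (-0.18 ± 0.28). Aif1, Cx3cr1, C1qa, C1qc and P2ry12 were above background on neither array. The summed signal of that list was 10432 on the knockdown array and 8178 on the control array. The part of these cell types in the differences below was not tested.

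The receptor transcripts lay below 0 in all 3 cases, against 48.9% of all genes, with a median of -0.29, and none reached 1.5-fold. The remaining receptor gene, Notch4, known from endothelium, is not among the 10 and lay above 0, with 187 on the knockdown array and 161 on the control array (0.22 ± 0.21). In bulk RNA of this kind, fewer cells of a type and less RNA per cell cannot be told apart. Notch2, on chromosome 3, encodes a receptor found in neural and many other tissues. Its main probe had a signal of 1107 on the knockdown array and 1597 on the control array. The difference was -0.53 ± 0.20, so the knockdown level was 69.3% of control, just short of 1.5-fold. Of all genes measured on both arrays, 22.9% differed at least this much in size. A second Notch2 probe, designed against another transcript, gave 12 on the knockdown array and 9.50 on the control array and was well above background on neither.

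Notch3, on chromosome 17, encodes a receptor best known in smooth muscle cells and pericytes of vessel walls. Its single probe had a signal of 2029 on the knockdown array and 2480 on the control array. The difference was -0.29 ± 0.20, or 81.7% of control, and 45.7% of all genes differed at least this much. The 4 vessel wall markers were all measured on both arrays, with a summed signal of 25330 on the knockdown array and 24990 on the control array. The brightest, Acta2, gave 24920 on the knockdown array and 24650 on the control array at its brightest probe. Its difference over measured probes was -0.12 ± 0.12. The growth factor receptor gene Pdgfrb gave 76.1 on the knockdown array and 16.6 on the control array, and differed by 2.19 ± 0.33, while Des and Rgs5 differed by -0.01 ± 0.21 and 0.46 ± 0.26. The part of such cells in the Notch3 signal was not tested.

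Notch1, on chromosome 2, encodes the receptor most studied in neural stem cells. One probe had a signal of 220 on the knockdown array and 250 on the control array (-0.19 ± 0.21). The other, designed against a separate transcript, had 97.6 on the knockdown array and 96.6 on the control array (0.01 ± 0.21). The mean difference was -0.09 ± 0.15, within the scanner error, and the probes lay closer together than the SD of 0.310 between probes of 1 gene.

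The ligand transcripts had a median difference of 0.09. Jag1, on chromosome 2, encodes a Jagged ligand that activates Notch on neighbouring cells. It had a signal of 392 on the knockdown array and 391 on the control array, a difference of 0.00 ± 0.20. Dll1, on chromosome 17, encodes a Delta ligand that differentiating neural progenitors display. Its main probe had 1425 on the knockdown array and 1337 on the control array, a difference of 0.09 ± 0.20. These signals were nearly equal on the arrays. A second Dll1 probe, designed against another transcript, gave 7.47 on the knockdown array and 6.87 on the control array and was well above background on neither.

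Dll3, on chromosome 7, encodes a divergent Delta protein that stays largely inside the cell and does not activate Notch on neighbours. It is also a surface antigen of neuroendocrine tumours in humans. It was read by 1 probe, whose first 30 of 60 bases are shown because the single difference past 1.5-fold rests on it.
Dll3 probe: gaaagggctttattgtacatattgcttatt
It had a signal of 294 on the knockdown array and 161 on the control array. The difference was 0.87 ± 0.21, a 1.83-fold higher signal on the knockdown array. At least this high were 5.15% of all genes, and 8.65% differed at least this much in either direction.

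The Dll3 spot lay at row 336 and column 51 of the array, within its last 64 rows. There, spots that are bright on 1 array and not above background on the other were frequent. Those with a plain ratio of at least 8-fold between the 2 processed signals, which is not the bound used for Hey2 below, made up 3.03% of the last 64 rows, against 0.104% of the array outside these rows and outside the last 4 columns. Among the 174 spots within 12 rows and 3 columns of Dll3, 5 were of this kind on the knockdown array and 0 on the control array. This was 2.87% of the 174, near the 3.03% of the last 64 rows. The 5 spots lay in rows 343 to 348. Their knockdown signals ran between 44.2 and 123 with a median of 94.5, and the Dll3 signal itself differed by 134 between the arrays. They included the probes of Dux, at 44.2 on the knockdown array and 2.80 on the control array, and of Taar1, at 50.7 on the knockdown array and 2.79 on the control array. A pair of spike-in control spots among them gave 94.5 and 103 on the knockdown array. The other copies of these controls elsewhere on the knockdown array had medians of 3.24 and 3.11. Nearer to Dll3, a spike-in spot at row 334 and column 53 went the other way, under 8-fold. It gave 2.98 on the knockdown array and 20.7 on the control array. Whether the Dll3 spot carried such a signal was not tested, since its probe has no second copy. Without the last 64 rows Dll3 has no value, and none of the 6 members still measured differed 1.5-fold or more. Notch3 lay in the same rows, and 0 of the 174 spots around it were of this kind.

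**Figure D2:**
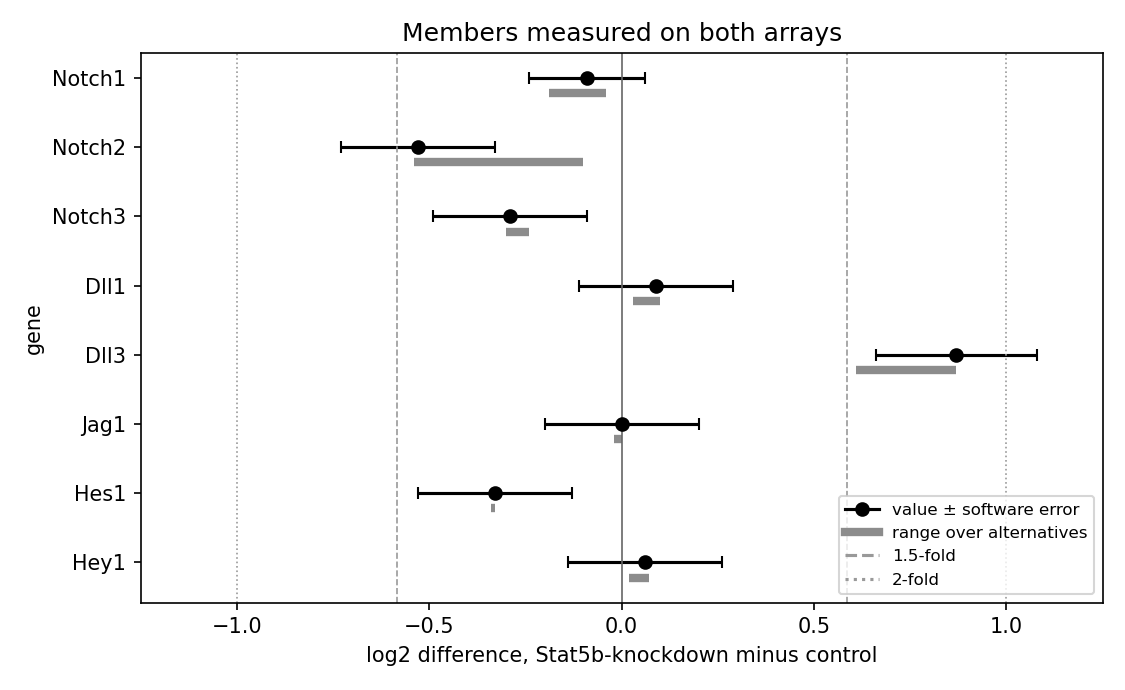
Log2 difference, knockdown minus control, of the 8 genes measured on both arrays (black points, with the scanner software's error as bars) and the range of the value over the alternative processings (grey bars). Dll3 at 0.87 lies to the right of the dashed 1.5-fold line, and the other 7 genes lie between the dashed lines.

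Of the HES and HEY targets, Hes1 and Hey1 were measured on both arrays, with a median of -0.13. Hes1, on chromosome 16, encodes a repressor of proneural genes that keeps neural stem cells dividing. It had a signal of 498 on the knockdown array and 625 on the control array. The difference was -0.33 ± 0.20, or 79.6% of control, and 41.2% of all genes differed at least this much. Hey1, on chromosome 3, encodes a related repressor downstream of Notch. It had 6132 on the knockdown array and 5865 on the control array, a difference of 0.06 ± 0.20. Its signals were thus within the scanner error of each other.

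Hes5, on chromosome 4, encodes a repressor that follows Notch activity in neural progenitors. Its 2 probes, which read different stretches of the transcript, are shown by their first 30 of 60 bases.
Hes5 probe 1: aggattcctttgtatgggtgggtgcatgtg
Hes5 probe 2: tccaagctggagaaggccgacatcctggag
The first gave 2.94 on the knockdown array and 2.71 on the control array, and the second gave 2.88 on the knockdown array and 2.65 on the control array. All 4 signals were well under 13.0 and 12.1, the lowest signals that counted as well above background on the knockdown and the control array. Hes5 was thus not detectable on either array, which does not show that it was absent from the cells.

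Hey2, on chromosome 10, encodes a HEY repressor known from the development of the heart and arteries. It was read by 1 probe, again shown by its first 30 of 60 bases.
Hey2 probe: ccagaggctcattgacaccaactcaaaaac
It had a signal of 151 on the knockdown array and 2.91 on the control array, where it was not well above background. The raw spot brightness was 164 on the knockdown array and 37.0 on the control array. Set against the lowest signal that counted as above background on the control array, the knockdown signal was at least 12.5-fold higher. Such a bound, of at least 8-fold with signal on the knockdown array alone, was reached by 37 of the 26891 named genes (0.138%).

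The Hey2 spot lay at row 257 and column 163 of 164 columns, at the array's edge. Within 12 rows and 3 columns of it, 15 of 124 spots (12.1%) were above background on 1 array alone with a plain signal ratio of at least 8-fold, against 0.615% of the whole array. Of these 15, 4 were bright on the knockdown array and 11 on the control array. The 4 had knockdown signals between 55.6 and 193, with a median of 83.5, and the 11 had control signals between 55.4 and 271, with a median of 85.9. The Hey2 signal differed by 148 between the arrays. The spots bright on the knockdown array lay in rows 256 to 260, next to Hey2, and those bright on the control array in rows 246 to 252 and 266 to 268.

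The neighbours named here were picked after their values were seen. The probe of Clec4b1, a C-type lectin gene, lay directly beside it and gave 87.3 on the knockdown array and 4.45 on the control array. On the other side of the pattern, the probe of Mageb5 gave 3.21 on the knockdown array and 271 on the control array, and that of Lum, a matrix proteoglycan, gave 3.21 on the knockdown array and 76.8 on the control array. Runx1t1 gave 3.22 on the knockdown array and 188 on the control array. The rest of the pattern was made up of spots of other genes and unnamed transcripts and of 3 control spots.

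These 3 spots carry probes for synthetic spike-in RNAs and match no mouse transcript by design. One, at row 256 and column 162, gave 193 on the knockdown array and 2.91 on the control array, while its 27 other copies on the knockdown array had a median of 3.02 and a highest value of 3.31. A second, at row 259 and column 163, gave 55.6 on the knockdown array and 3.03 on the control array, with 27 other copies at a median of 3.05 and a highest value of 10.0 on the knockdown array. The last, at row 247 and column 162, gave 5.27 on the knockdown array and 156 on the control array, with a highest value of 8.38 among its 27 other copies on the control array. The scanner software marked all 3 as outliers on the array where they were bright. Hey2 has no second spot to set its value against.

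Of the 37 genes whose bound, not the plain ratio, reached 8-fold in knockdown cells, 34 had their bright probe in the last 64 rows. Outside those rows, Hey2 alone lay in the last 4 columns, and 2 lay elsewhere. The Hey2 value is thus that of 1 spot among neighbours of like brightness, and whether it reflects the Hey2 transcript was not tested. Around the remaining dim probes, the box of the second Dll1 probe held 9 spots bright on the knockdown array alone and 3 on the control array alone, by the same plain ratio. That of the first Hes5 probe held 0 on the knockdown array alone and 9 on the control array alone, and both probes themselves were dark on both arrays.

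**Figure D3:**
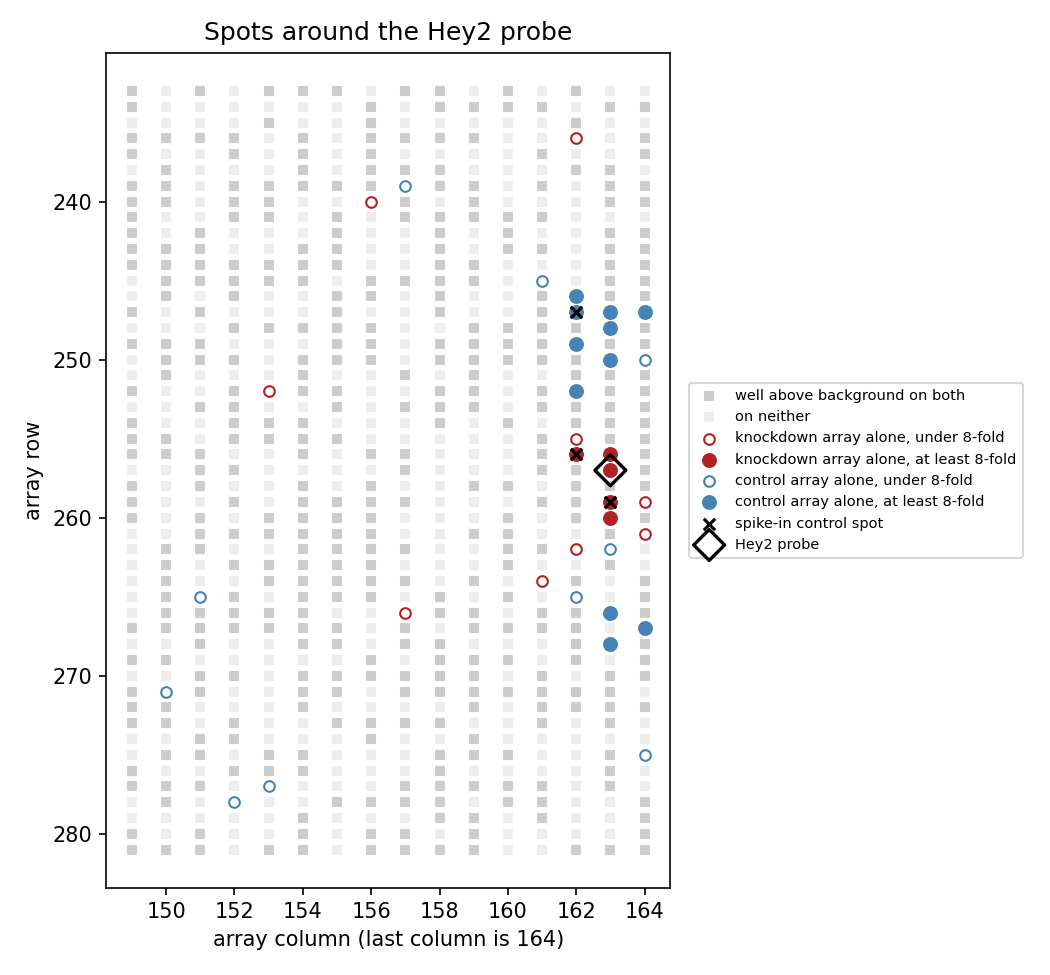
Map of the spots around Hey2 by array row and column. Red marks spots well above background in knockdown cells alone and blue those in control cells alone (filled where the plain ratio of the signals was at least 8-fold), grey squares on both or neither, crosses mark spike-in control spots among the filled spots, and the diamond marks Hey2. Filled red spots lie at rows 256 to 260 around Hey2, with filled blue spots above them at rows 246 to 252 and below them at rows 266 to 268, all in the last columns.

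Promoters were read for the motif that Rbpj binds. Windows of 250 bases before to 50 after the transcript start, from the RefSeq tables for build GRCm38.p6, were found for 8 of the 10 genes, all but Hes1 and Hey1 (9 windows, with 2 for Dll1). The motif GTGGGAA, searched on both strands, was found in 6.38% of all 32851 windows. It was found in Hes5, starting 226 and 83 bases before the transcript start, and in Hey2, starting 207 and 4 bases before it. It was not found in the windows of the 3 receptors or the 3 ligands. The STAT motif TTCNNNGAA, which reads the same on both strands, was found in 8.30% of all windows and, among these genes, in Notch3 alone, 3 bases after the start. A match describes letters and does not show that a protein binds there.
The Hes5 and Hey2 windows are shown in the gene's direction, with capitals marking the Rbpj motif on either strand, to show where the matches lie in the genes that hold them. The Hes5 window is chr4:154960673-154960942 on the plus strand and the Hey2 window chr10:30842764-30843033 on the minus strand, both from 250 bases before to 20 after the start.
Hes5 promoter: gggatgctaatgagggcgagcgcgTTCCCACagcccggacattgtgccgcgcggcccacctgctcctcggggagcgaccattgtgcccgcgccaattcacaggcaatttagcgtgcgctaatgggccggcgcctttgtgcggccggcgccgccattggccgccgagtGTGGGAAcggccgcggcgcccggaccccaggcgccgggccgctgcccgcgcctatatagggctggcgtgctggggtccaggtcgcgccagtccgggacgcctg
Hey2 promoter: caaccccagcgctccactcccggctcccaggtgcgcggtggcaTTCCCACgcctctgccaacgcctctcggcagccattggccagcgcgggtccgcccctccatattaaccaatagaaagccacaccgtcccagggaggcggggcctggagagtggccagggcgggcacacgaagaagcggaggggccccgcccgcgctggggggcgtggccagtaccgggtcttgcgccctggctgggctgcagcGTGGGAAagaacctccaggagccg
Both windows hold 1 match far from the start and 1 nearer to it, and the nearer Hey2 match ends across the start itself.

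The probes were alike in design. All 14 were 60 bases long, with a GC content between 26.7% and 55.0% and a median of 42.5%, against 41.7% over all probes. The longest run of bases that any of them shared with a probe of another named gene was 17.

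The rest of the pathway was taken from a list of 63 further genes with known roles, in 7 classes. Of these, 54 were measured on both arrays, 6 were higher by 1.5-fold or more on the knockdown array (11.1% of the 54) and 7 lower by 1.5-fold or more (13.0%). Over all genes these shares were 11.0% and 8.44%. By 2-fold or more, 1 was higher and 2 were lower, against 3.66% and 2.41% of all genes. The median was 0.13, with 33 genes above 0 and 21 below. The named genes are those past 1.5-fold, those above background on 1 array alone and the brightest of each class. Under normexp, a background correction that damps dim probes, 5.77% of all genes were higher by 1.5-fold or more. Tle1, Tle2 and Dtx3l were the 3 further genes still that much higher, and Dlk1, Maml2, Kat2b, Lfng and Neurod1 fell short of 1.5-fold.

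Among the further ligands and receptors 5 of 6 were measured. Jag2, the second Jagged ligand, had a signal of 1024 on the knockdown array and 1566 on the control array, a difference of -0.61 ± 0.20, and was the brightest of its class. It was 1.53-fold lower on the knockdown array, while Jag1 was at 0.00. Dlk1, a Delta-like protein that lacks the domain with which Delta ligands engage Notch, gave 25.7 on the knockdown array and 16.5 on the control array (0.64 ± 0.37), close to background on both.

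Of the other HES and HEY genes and Notch targets, 7 of 9 were measured and 0 passed 1.5-fold. Over all genes 11.0% were higher and 8.44% lower by 1.5-fold or more. The brightest was Hes6, which encodes a HES protein that opposes Hes1, with 7601 on the knockdown array and 6410 on the control array at its brighter probe. Its 2 probes gave a mean difference of 0.22 ± 0.14. Heyl, a further HEY gene, and Nrarp, a Notch-induced feedback inhibitor, fall outside the naming rule and are given for their role, chosen with their values known. Heyl had 551 on the knockdown array and 423 on the control array (0.38 ± 0.20), and Nrarp 474 on the knockdown array and 433 on the control array (0.13 ± 0.20). The class median was 0.13, against 0.01 over all genes.

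Of the nuclear complex, 13 of 14 genes were measured, 3 higher by 1.5-fold or more and 1 lower by 1.5-fold or more. These were 23.1% and 7.69% of the 13, against 11.0% and 8.44% of all genes. Maml2, a Mastermind coactivator, had 833 on the knockdown array and 484 on the control array at its brighter probe, and its 2 probes gave a mean of 0.74 ± 0.15. Tle1 and Tle2 encode Groucho corepressors, through which HES proteins repress. Tle1 had 4962 on the knockdown array and 2835 on the control array at its brightest probe, and its 3 probes ran between 0.39 and 0.81 with a mean of 0.62 ± 0.12. Tle2 had 5041 on the knockdown array and 3727 on the control array at its brighter probe, and its 2 probes gave 0.43 and 1.01. The probes of these 3 genes thus all lay above 0. Kat2b, an acetyltransferase coactivator, was lower, with 86.8 on the knockdown array and 140 on the control array (-0.69 ± 0.21).

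Rbpj itself, chosen for its role with its value known, was measured by 3 probes, with a mean of -0.18 ± 0.12. Its brightest probe gave 1707 on the knockdown array and 1946 on the control array. Snw1, which binds Rbpj and is a splicing factor as well, was the brightest of the class, with 15890 on the knockdown array and 15020 on the control array (mean 0.06 ± 0.14 over 2 probes). Rbpjl, an Rbpj relative of the pancreas, was above background on the control array alone, as were 2.32% of named genes. It gave 10.8 on the knockdown array and 14.8 on the control array, so the knockdown signal was at least 1.14-fold lower.

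All 9 genes of the enzymes that cleave Notch were measured, and 0 passed 1.5-fold, against 11.0% of all genes higher and 8.44% lower. Their median was 0.13. The brightest was Psenen, a gamma-secretase subunit, with 8670 on the knockdown array and 8034 on the control array at its brightest probe and a mean of 0.13 ± 0.12 over 3 probes.

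The Fringe enzymes add sugars to Notch and alter which ligands it answers to. Mfng had 1142 on the knockdown array and 1823 on the control array (-0.68 ± 0.20), and Lfng had 74.2 on the knockdown array and 120 on the control array (-0.70 ± 0.22). Both were lower by 1.5-fold or more on the knockdown array, and they were the 2 such genes among the 5 sugar-modifying enzymes. Of all genes 8.44% were lower by that much. The remaining Fringe gene, Rfng, was the brightest of the class and lay on the other side of 0, with 6506 on the knockdown array and 5120 on the control array (0.34 ± 0.20). The measured Lfng and Rfng probes lay in the last 64 rows, and the Mfng probe did not.

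Of 13 genes of trafficking and turnover all were measured, with 1 higher by 1.5-fold or more and 3 lower by 1.5-fold or more. These were 7.69% and 23.1% of the 13, against 11.0% and 8.44% of all genes. The Deltex genes encode ubiquitin ligases, several of which act on Notch. Dtx1 had 857 on the knockdown array and 1804 on the control array (-1.08 ± 0.20), or 47.4% of control. Dtx4 had 3463 on the knockdown array and 6035 on the control array (-0.80 ± 0.20). Dtx3l, which works with the interferon-induced protein Parp9, went the other way, with 569 on the knockdown array and 268 on the control array (1.09 ± 0.20). Neurl1b, a ligase that drives the uptake of Notch ligands, had 84.4 on the knockdown array and 172 on the control array (-1.03 ± 0.21). Its relative Neurl1a, the brightest of the class, had 5553 on the knockdown array and 6448 on the control array (-0.22 ± 0.20).

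Of the 7 proneural genes that HES proteins repress, 2 were measured on both arrays. The brighter, Neurod1, a neuronal differentiation factor, had 50.2 on the knockdown array and 25.3 on the control array (0.99 ± 0.29). The other, Neurog1, lay below 0, with 17.5 on the knockdown array and 25.5 on the control array (-0.54 ± 0.34), near background on both. Another 4 genes of the class were well above background on neither array.

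**Figure D4:**
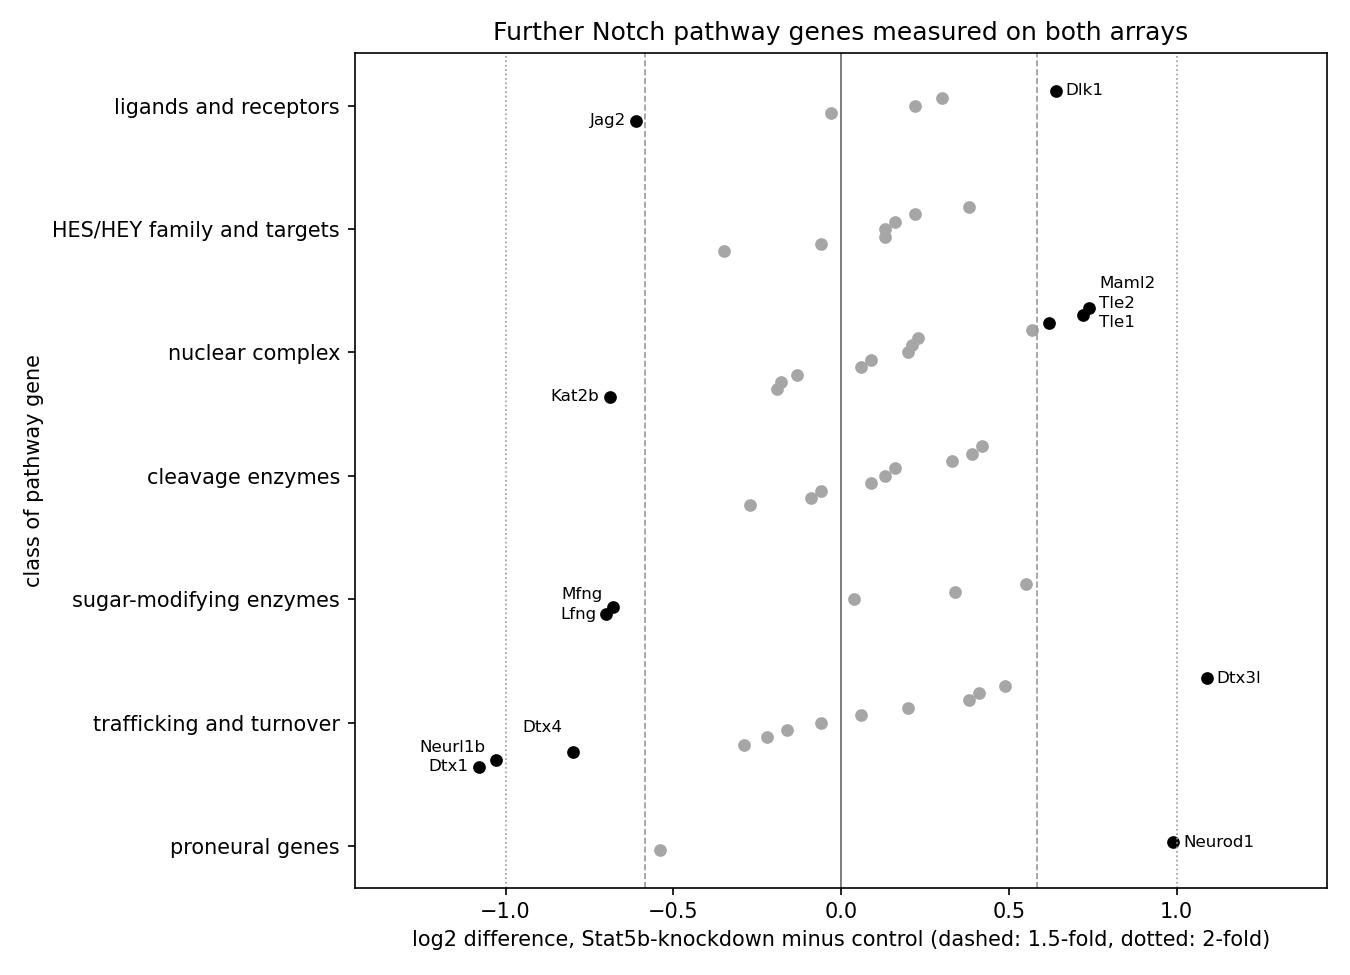
Log2 difference, knockdown minus control, of the 54 further pathway genes measured on both arrays, 1 point a gene, by class. Black points with names differ by 1.5-fold or more (dashed lines), and dotted lines mark 2-fold. All points of the HES/HEY and cleavage classes lie inside the dashed lines, and Dtx1, Neurl1b and Dtx3l lie beyond the dotted ones.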

How the data were processed

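Total RNA of 1 Stat5b-knockdown and 1 control culture was labelled with Cy3 and hybridised to 1 array each, per the labels' protocols. The deposited scanner files hold spot intensity. Per the file headers, the images were read by Agilent Feature Extraction 12.1.0.3, the protocol was GE1_1200_Jun14 and the design's build mm9. Other columns used from the deposited files are the software's error and its 0 or 1 flags that mark saturation, outliers and signal well above background. The authors' deposited table holds log2 values, which equal log2 of the processed signal minus a constant of 8.94 per array within 0.001 for 100% of 56294 single-spot probes. Its column medians were -3.83 on both arrays. The software that made it is not given in the sources used here. Gene symbols came from this table.

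Outlier spots were left out (94 on the knockdown array, 112 on the control array), signals under 1 were set to 1, spots of a probe were averaged as log2, and the 75th percentile of an array's non-control probes was subtracted. A gene's value averages those of its probes that were above background on each array. For a probe above background on 1 array, the bound sets its level against the lowest level above background on the other array (-5.25 on the knockdown array, -5.35 on the control array), or its own where higher. With 1 array per group, no p-value was computed, and 1.5-fold and 2-fold are rules of size. The script was tested on simulated data. Tools were Python 3.11.15 with pandas 2.3.3 and numpy 2.4.6, and R 4.3.3 with limma 3.58.1 for the normexp (offset 50) and quantile alternatives. Normexp used the median spot signal, since the files hold no mean signal, which the plan had named.

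All 10 genes were named with every probe. Of the 63 further genes, those differing by 1.5-fold or more, those above background on 1 array and the brightest of each class were named, except for 1 result that is not reported here. The genes and lists were chosen with earlier results of these data known. Other columns of samples left unused numbered 0.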

Additional observations from a re-analysis of the deposited data

Results flagged for a closer look

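Control spots are in no comparison between the cells, and 4 of them near the Hey2 and Dll3 probes drew attention because they were bright on the knockdown array, above the control array and above their own copies. Beside Hey2, spike-in spots at row 256 and column 162 and at row 259 and column 163 gave signals of 193 and 55.6 on the knockdown array. On the control array they gave 2.91 and 3.03. Their 27 other copies each on the knockdown array reached at most 3.31 and 10.0.

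Near Dll3, spike-in spots at row 346 in columns 49 and 50 gave 94.5 and 103 on the knockdown array. On the control array they gave 7.78 and 2.80. Their 34 and 27 other copies on the knockdown array reached at most 22.2 and 4.69. On the control array 1 other copy of the second reached 355, so bright single copies of such controls occur on both arrays.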

How the results depend on the processing

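Across 9 other ways of processing and 1 chosen after seeing the data (without the last 4 columns), 170 of 185 values stayed close to those reported, 15 moved and 0 reversed. Many of the 170 could hardly move, so this count does not measure robustness. The authors' values are the same signals minus a constant, and a gene with 1 measured probe keeps it as its brightest. Counted as close was also a rise from 6 to 9 further genes higher by 1.5-fold or more, without the filter on dim probes. No paired analysis was possible because each group had 1 array. Notch1 ranged between -0.19 and -0.04, Notch3 between -0.30 and -0.24, Dll1 between 0.03 and 0.10, Jag1 between -0.02 and 0.00, Hes1 between -0.34 and -0.33 and Hey1 between 0.02 and 0.07. Normexp background correction, which damps dim probes, gave 0.61 for Dll3, still past 1.5-fold, and a log2 bound of 1.52 for Hey2. With it 3 of the 54 further pathway genes were higher by 1.5-fold or more, against 5.77% of all genes. By 2-fold or more 0 were higher and 1 was lower, against 1.16% and 1.03% of all genes. Dlk1, Maml2, Kat2b, Lfng and Neurod1 fell short of 1.5-fold. Without the filter on dim probes Hey2 stood at 5.70 and Notch2, with its dim probe averaged in, at -0.10. Of the 10 members, 2 were then higher by 1.5-fold or more and 1 by 2-fold or more, against 11.4% and 4.76% of all genes. Of the 63 further genes, 3 were higher by 2-fold or more and 1 lower by 2-fold or more, against 4.76% and 3.71%. Lfng then fell short of 1.5-fold. With brighter probes alone 6 members were measured, 0 of them higher by 1.5-fold or more, against 8.14% of all genes. Of 39 further genes measured, 4 were lower by 1.5-fold or more and 1 of them by 2-fold or more, against 8.25% and 2.17%. Without the last 64 rows Dll3 and Notch3 were lost and 0 members were higher by 1.5-fold or more, against 10.7% of all genes. Taking each gene's brightest probe put Tle2 short of 1.5-fold. The filters, the rows and the choice of probe act by changing which probes are read, and the cause of the normexp shifts was not tested. Without the last 4 columns Hey2 has no value. Signals near the lowest well above background, 13.0 on the knockdown array and 12.1 on the control array, limit what Hes5, Rbpjl and Dlk1 can show.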
